A study of Homo sapiens with 33 samples.

Results

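Ligands of the epidermal growth factor receptor (EGFR) and transcripts that report activity of the mitogen-activated protein kinase (MAPK) cascade were followed in HT29 cells treated with herbal extracts. The set holds 10 genes of 60675 in the count table, chosen by symbol: the ligands AREG, EREG, TGFA and HBEGF, the phosphatases DUSP4, DUSP5 and DUSP6, the inhibitor SPRY4, and the transcription factors ETV4 and ETV5. All 10 passed the filter on low counts and were tested among 17433 genes. HT29 is an established human colorectal adenocarcinoma line.

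Cells were collected 24 h after addition of a 70% ethanol extract of one of 4 herbal formulas, each at a low (20 µg/mL), a medium (100 µg/mL) and a high (500 µg/mL) dose, or of vehicle alone. Sagunja-tang and Samul-tang each had 2 libraries per dose, numbered 2 and 3 in the labels. Palmul-tang, which combines the herbs of those formulas, and Sibjeondaebo-tang, which adds further herbs to Palmul-tang, each had 3 libraries per dose. The vehicle group had 3 libraries, and its labels give 0.1% DMSO, whereas the series text gives another percentage. This makes 33 bulk RNA libraries in 13 groups of a single line. The labels do not say that replicates came from separate cultures, so each p-value speaks of the spread among the libraries at hand, and that spread may be technical. All titles name batch E, but the sample codes in the labels start in 3 ways: one for the formulas with 2 libraries per dose, another for the formulas with 3, and another for vehicle. What the codes mean is not stated. A difference between extracts and vehicle therefore cannot be told apart from whatever the codes stand for.

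Totals ran from 28558886 to 49068064 counts in extract libraries and from 31071823 to 35626423 in vehicle libraries. Of 10 colon epithelial markers all were measured, with a summed level, in normalised counts (CPM, counts scaled by library total), of 11487 to 14034 CPM in extract libraries and 12229 to 12649 CPM in vehicle libraries. Most of that was the keratin genes KRT8 and KRT18, at means of 6494 and 3916 CPM. CDX1, CDX2 and CEACAM5 had means of only 0.89, 4.55 and 7.19 CPM. The 7 fibroblast markers summed to 1.65 to 2.76 CPM in extract libraries and 1.85 to 2.21 CPM in vehicle libraries, with PDGFRA at 0 in all 33. The 4 endothelial markers summed to 1.13 to 2.07 CPM in extract libraries and 1.70 to 1.97 CPM in vehicle libraries, with KDR at 0 in all 33. The 7 leukocyte markers summed to 1373 to 1827 CPM in extract libraries and 1379 to 1441 CPM in vehicle libraries. Nearly all of that was LYZ, a lysozyme gene, at a mean of 1496 CPM, while the leukocyte-defining PTPRC had a mean of 0.015 CPM. Replicates of high-dose Sagunja-tang differed most from each other (chi-square per degree of freedom 26.9). Results of the 10 genes on that group are also given without each library, and those of other genes are not. Other pairs reached at most 18.3, for vehicle replicates 1 and 3, and vehicle is the reference of every comparison with vehicle. The mitochondrial share of counts was 5.71 to 8.83% in extract libraries and 8.69 to 11.4% in vehicle libraries.

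EGFR is a receptor tyrosine kinase at the surface of epithelial cells. Its ligands are made as membrane-bound precursors that proteases cut free, and a bound receptor signals through RAS, RAF, MEK and ERK. ERK activity raises transcription of the genes that oppose it: DUSP phosphatases remove the activating phosphates from MAP kinases, and Sprouty proteins act on the pathway upstream of ERK. ETV4 and ETV5 belong to the PEA3 group of ETS transcription factors and are widely read as ERK output. AREG, EREG and TGFA are themselves expressed by colorectal cancer cells, where AREG and EREG levels are known for their relation to the response to antibodies against EGFR.

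The promoter windows of 5 start sites are shown because they belong to the ligands that differed between doses (TGFA, with a pair of start sites, and HBEGF), to the gene that differed most from vehicle (SPRY4), and, for contrast, to a member with no call (DUSP6). Each is the 250 bases before a RefSeq start site on the gene's own strand, read 5′ to 3′ (RefSeq, GRCh38.p14). Capitals mark GGAA or its complement TTCC, the core that ETS factors bind.

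TGFA start site 1, chr2:70553827-70554076, minus strand: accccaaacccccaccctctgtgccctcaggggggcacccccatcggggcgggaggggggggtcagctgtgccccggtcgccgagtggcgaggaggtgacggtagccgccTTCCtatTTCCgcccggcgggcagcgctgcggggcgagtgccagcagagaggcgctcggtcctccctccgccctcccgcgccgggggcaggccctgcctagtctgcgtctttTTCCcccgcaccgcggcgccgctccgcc
TGFA start site 2, chr2:70553447-70553696, minus strand: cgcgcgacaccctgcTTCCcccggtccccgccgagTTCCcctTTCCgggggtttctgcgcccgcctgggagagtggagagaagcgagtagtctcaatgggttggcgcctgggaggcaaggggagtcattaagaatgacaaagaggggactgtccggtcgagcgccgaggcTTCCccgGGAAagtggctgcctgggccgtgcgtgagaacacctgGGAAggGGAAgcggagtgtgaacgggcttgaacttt
HBEGF, chr5:140346604-140346853, minus strand: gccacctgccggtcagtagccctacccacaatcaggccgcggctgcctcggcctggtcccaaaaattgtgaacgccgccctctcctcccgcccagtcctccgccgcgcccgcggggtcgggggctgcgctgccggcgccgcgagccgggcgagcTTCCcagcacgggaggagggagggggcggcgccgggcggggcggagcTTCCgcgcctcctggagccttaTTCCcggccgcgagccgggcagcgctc
SPRY4, chr5:142324248-142324497, minus strand: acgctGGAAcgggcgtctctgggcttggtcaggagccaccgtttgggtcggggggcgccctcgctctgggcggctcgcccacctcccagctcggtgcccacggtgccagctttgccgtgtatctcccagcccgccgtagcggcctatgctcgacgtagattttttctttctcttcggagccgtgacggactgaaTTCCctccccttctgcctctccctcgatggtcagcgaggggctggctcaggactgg
DUSP6, chr12:89352502-89352751, minus strand: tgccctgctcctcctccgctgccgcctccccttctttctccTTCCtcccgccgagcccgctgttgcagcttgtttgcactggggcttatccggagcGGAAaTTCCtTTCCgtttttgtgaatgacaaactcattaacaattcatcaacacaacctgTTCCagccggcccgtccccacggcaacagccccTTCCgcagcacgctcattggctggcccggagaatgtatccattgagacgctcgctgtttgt

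RefSeq windows were at hand for 6 of the 10 genes, 7 windows in all. GGAA on either strand occurred 3 times in AREG, 4 times in EREG, 3 and 7 times in the TGFA windows, 3 times in HBEGF, 6 times in DUSP6 and 2 times in SPRY4. GGAA is common: 92.7% of 35116 promoter windows of this length hold it. The AP-1 motif TGANTCA, searched on both strands, was in none of the 7 windows and is in 6.57% of all windows. The cyclic AMP response element TGACGTCA occurred 1 time, in AREG, starting 65 bases before the start site, and is in 1.65% of all windows. The motif TGACNNNGC of the antioxidant response element occurred 1 time, in SPRY4, and is in 10.9% of windows. The Sp1 motif GGGCGG occurred 5 times in HBEGF, 3 times in the first TGFA window and 1 time each in AREG and SPRY4, and is in 42.6% of windows. A match is a run of letters in a window and says nothing of binding.

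All 10 genes were expressed in every library, with a lowest count of 115 for DUSP5. Per kilobase of exon, averaged over the 33 libraries, ETV4 was highest at 29.3 CPM per kb, followed by AREG at 23.8, TGFA at 15.7, EREG at 14.8, DUSP6 at 12.9, SPRY4 at 10.4, ETV5 at 7.49, DUSP4 at 4.48, HBEGF at 2.77 and DUSP5 at 1.53 CPM per kb. Of the 9 pairs of neighbours in that order, 3 overlapped in range over libraries: TGFA (14.4 to 18.4) with EREG (13.4 to 16.7), EREG with DUSP6 (12.1 to 13.7), and DUSP6 with SPRY4 (8.08 to 12.7 CPM per kb). The level of AREG per kb was thus above that of EREG in all libraries (21.1 to 26.2 CPM per kb), and HBEGF was the lowest of the 4 ligands. Replicates of a group varied little, with a pooled coefficient of variation from 2.43% for TGFA to 9.05% for DUSP5. The highest group mean exceeded the lowest by 1.06-fold for DUSP6 and by at most 1.37-fold, for SPRY4, so every difference described here is small in size.

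**Figure D1:**
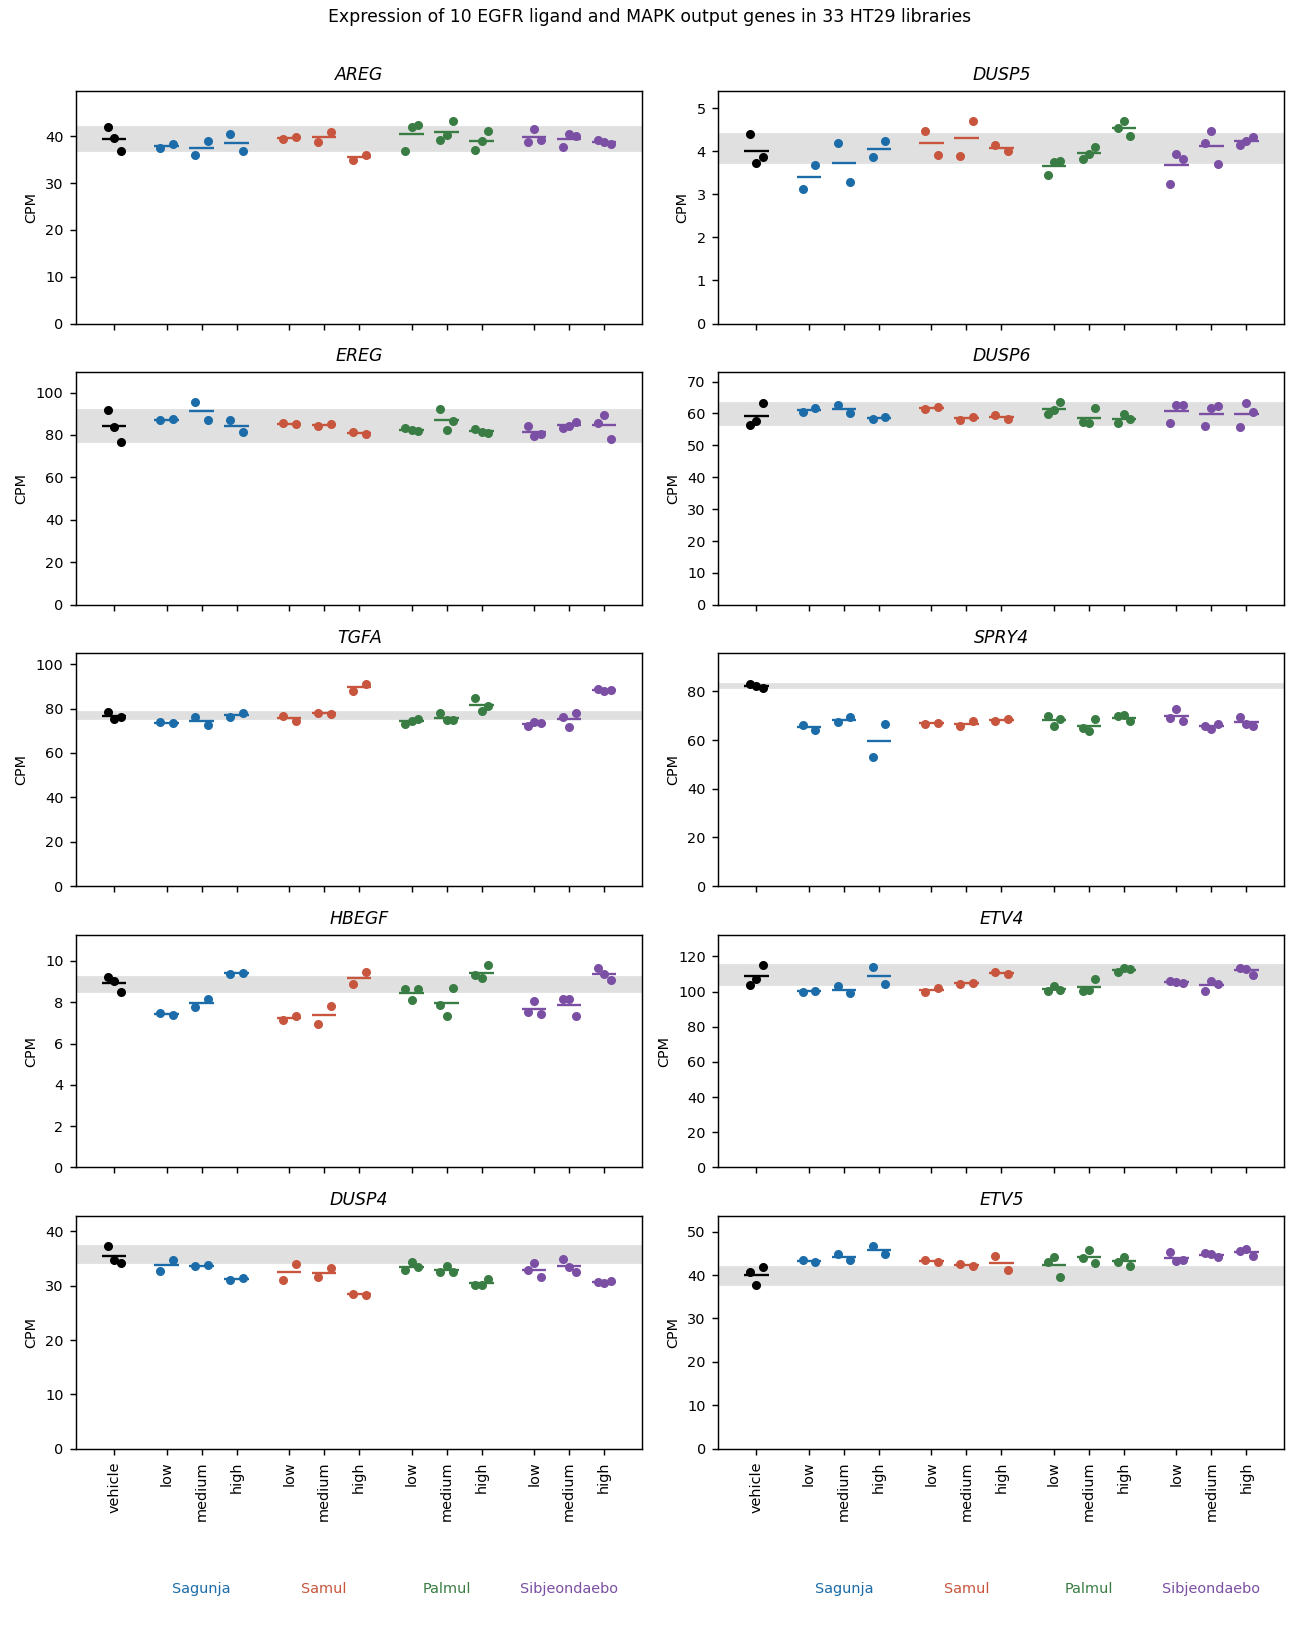
Expression of the 10 genes in CPM (vertical axis, from 0) in vehicle (black) and in each extract at low, medium and high dose; each point is a library, each line a group mean, and the grey band spans the 3 vehicle libraries. SPRY4 lies below the vehicle band in all 30 extract libraries, TGFA and HBEGF are higher at the high dose than at the low dose, and DUSP4 is lowest at the high dose.

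Against vehicle, the 10 genes did not move together. SPRY4 fell with every extract and dose, DUSP4 fell at the high dose of every extract, and TGFA rose at the high dose of 3 extracts. HBEGF fell in 5 of 12 comparisons, all at a low or medium dose, and ETV5 rose in 6 of 12. AREG, EREG, DUSP5 and DUSP6 passed the test in none of the 12. At the low dose, edgeR's quasi-likelihood test with Benjamini-Hochberg adjustment over all genes (threshold 0.05) called 3 of the 10 genes with Sagunja-tang, where 21.9% of all tested genes were called. It called 3 with Sibjeondaebo-tang at that dose (22.0% of all genes), 2 with Samul-tang (17.6%) and 1 with Palmul-tang (20.3%). At the medium dose it called 3 with Sibjeondaebo-tang (26.0%) and 2 each with Sagunja-tang (16.5%), Samul-tang (20.1%) and Palmul-tang (20.0%). At the high dose it called 4 with Sibjeondaebo-tang (39.6%) and 3 each with Sagunja-tang (36.6%), Samul-tang (27.5%) and Palmul-tang (32.1%). The shares among the 10 genes were near those of all genes, so the number of calls is not a result about the set, and what follows describes the genes one at a time. All 12 comparisons share the same 3 vehicle libraries.

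**Figure D2:**
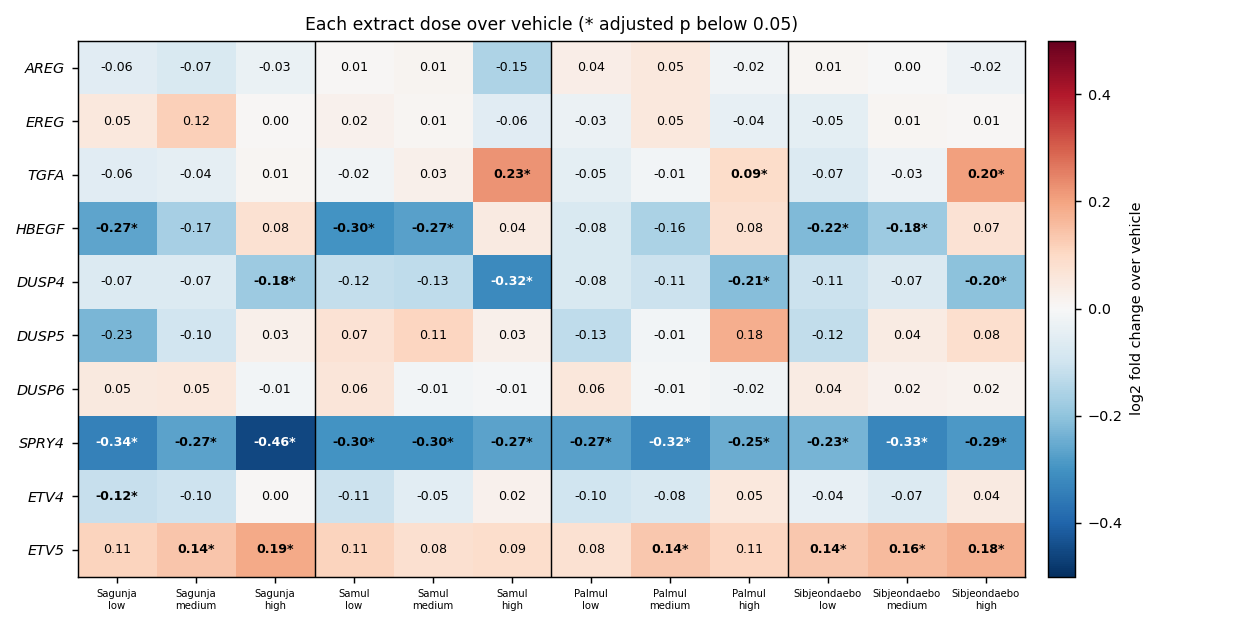
Log2 fold change of each gene (rows) for each extract and dose over vehicle (columns), from the edgeR fit; an asterisk marks an adjusted p below 0.05. SPRY4 is negative and called in 12 of 12 columns (-0.46 to -0.23), DUSP4 is called in the 4 high-dose columns, and AREG, EREG, DUSP5 and DUSP6 have no called column.

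Between the high and the low dose of the same extract, a comparison that does not use vehicle, the ligands TGFA and HBEGF were higher and the phosphatase DUSP4 was lower. With the extracts averaged, 5 of the 10 genes were called (TGFA, HBEGF, DUSP5 and ETV4 higher, DUSP4 lower), where 38.5% of all genes were. Within single extracts, 4 genes were called with Palmul-tang (14.4% of all genes), 3 with Samul-tang (7.53%), 2 with Sibjeondaebo-tang (29.9%) and 1 with Sagunja-tang (7.19%). The median log2 fold change of the 10 genes for the averaged extracts was 0.01, against -0.01 over all genes tested.

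**Figure D3:**
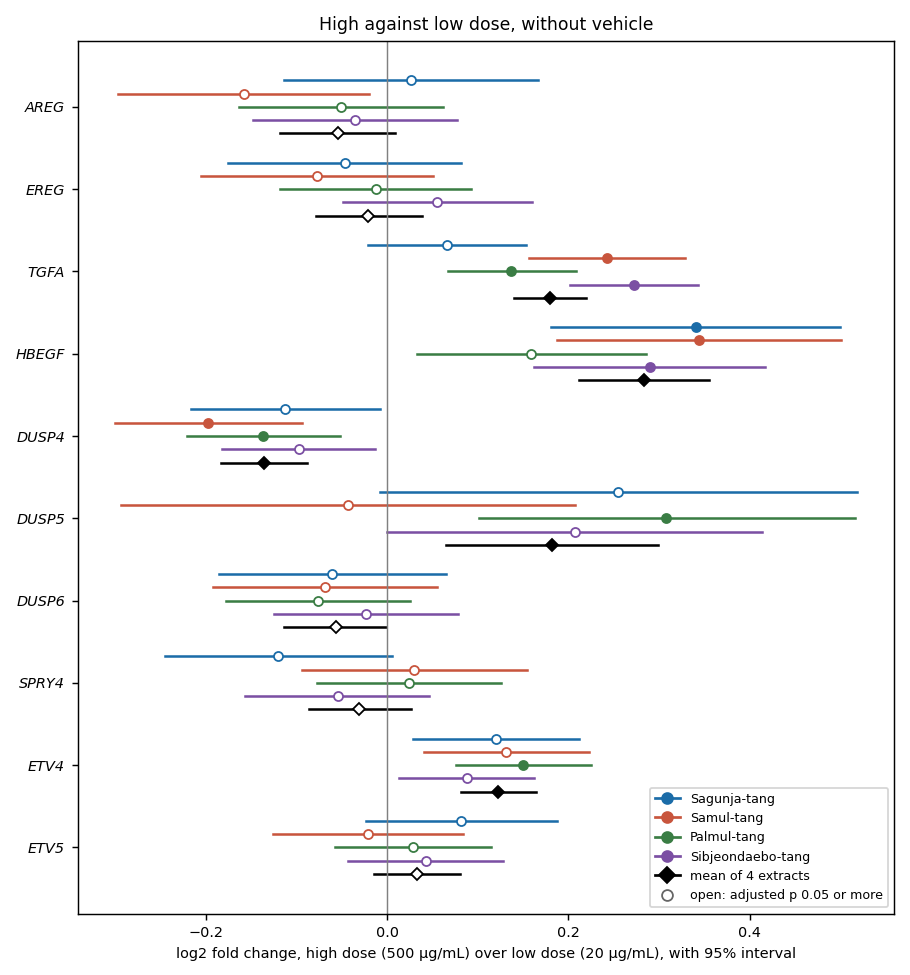
Log2 fold change of the high over the low dose (horizontal axis) with its 95% interval, for each gene, for each extract (coloured) and for the mean of the 4 extracts (black); filled symbols have an adjusted p below 0.05. The means for TGFA (0.18), HBEGF (0.28), DUSP5 (0.18) and ETV4 (0.12) lie above 0, and that for DUSP4 (-0.14) lies below.

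AREG and EREG encode amphiregulin and epiregulin, ligands whose genes lie on the same arm of chromosome 4 (AREG at chr4:74445134-74455009 and EREG at chr4:74365143-74388751, plus strand, GENCODE 29 on GRCh38). Neither passed the test in any of 24 comparisons. AREG had 34.8 to 41.2 CPM with a median of 38.6 CPM in the 10 high-dose libraries, and 42.0, 39.6 and 36.8 CPM in the vehicle libraries. The groups overlapped. Its lowest group was high-dose Samul-tang, at 34.8 and 36.1 CPM, against 39.3 and 39.9 CPM at the low dose. The log2 fold change of that group over vehicle was -0.15 ± 0.063 (SE), with an adjusted p of 0.0692 by edgeR. EREG had 78.1 to 89.5 CPM with a median of 81.5 CPM in the high-dose libraries and 91.7, 84.0 and 76.5 CPM in the vehicle libraries, and 2 of 30 extract libraries lay outside the range of vehicle. Against vehicle, the 95% intervals of the 12 log2 fold changes reached from -0.28 to 0.17 for AREG and from -0.18 to 0.24 for EREG.

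TGFA encodes transforming growth factor alpha, an EGFR ligand (chr2:70447280-70554193, minus strand). At the high dose it had 76.3 and 78.0 CPM with Sagunja-tang, 88.0 and 91.2 CPM with Samul-tang, 85.0, 78.8 and 81.1 CPM with Palmul-tang, and 88.8, 88.2 and 88.3 CPM with Sibjeondaebo-tang. The vehicle libraries had 78.6, 75.3 and 76.2 CPM, so 8 of the 10 high-dose libraries lay above all of vehicle, and the 2 that did not were those of Sagunja-tang. Against vehicle TGFA rose by a log2 fold change of 0.23 ± 0.038 with Samul-tang (SE, edgeR adjusted p 9.3e-05), 0.20 ± 0.035 with Sibjeondaebo-tang (3.25e-05) and 0.09 ± 0.035 with Palmul-tang (0.0486). The Palmul-tang call was lost under another scaling (RLE size factors, edgeR adjusted p 0.0567) and with no filter on low counts (0.211). It was also lost when only the groups compared were fitted (0.138). Leaving out vehicle replicate 2 or 3, or high-dose Palmul-tang replicate 1 or 3, ended it too (0.0946 to 0.259). For Sagunja-tang the log2 fold change over vehicle was 0.01, with a 95% interval of -0.07 to 0.09.

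At the low dose TGFA had 72.0 to 76.9 CPM with a median of 74.0 CPM over 10 libraries, and at the medium dose 71.5 to 78.2 CPM with a median of 76.3 CPM. None of those 8 groups differed from vehicle by the test. High against low dose, TGFA averaged 84.4 ± 5.35 CPM at the high dose and 74.1 ± 1.33 CPM at the low dose (SD, n = 10 each, over extracts), a log2 fold change of 0.18 ± 0.019 (SE, edgeR adjusted p 2.42e-08). It rose with Samul-tang by 0.24 (adjusted p 3.1e-04), with Palmul-tang by 0.14 (0.00693) and with Sibjeondaebo-tang by 0.27 (8.45e-07). With Sagunja-tang it was 77.2 ± 1.19 CPM at the high dose and 73.7 ± 0.218 CPM at the low dose (SD, n = 2 each), a log2 fold change of 0.07 that did not pass. The Palmul-tang call was lost when high-dose replicate 1 or low-dose replicate 1 was left out (edgeR adjusted p 0.0648 and 0.0552). It was also lost with no filter on low counts (0.0853).

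HBEGF encodes heparin-binding EGF-like growth factor (chr5:140332843-140346631, minus strand), and its level followed dose in another way: low and medium doses lay below vehicle and the high dose lay near it. The vehicle libraries had 9.23, 9.05 and 8.48 CPM. The low-dose libraries had 7.15 to 8.65 CPM with a median of 7.48, the medium-dose libraries 6.96 to 8.69 CPM with a median of 7.84, and the high-dose libraries 8.90 to 9.80 CPM with a median of 9.38. Of the low-dose libraries 8 of 10 lay below all of vehicle, the exceptions being 2 of Palmul-tang, and of the medium-dose libraries 9 of 10. HBEGF fell at the low dose with Sagunja-tang (log2 fold change -0.27, edgeR adjusted p 0.00958), Samul-tang (-0.30, 0.00592) and Sibjeondaebo-tang (-0.22, 0.0152), and at the medium dose with Samul-tang (-0.27, 0.00881) and Sibjeondaebo-tang (-0.18, 0.0371). Each of those 5 calls was lost without at least 1 single library (adjusted p up to 0.0907, 0.087, 0.0858, 0.23 and 0.228 in that order). With the extracts averaged, HBEGF fell against vehicle by 0.22 at the low dose (adjusted p 0.0024) and by 0.19 at the medium dose (0.0054), and those calls were kept whichever single library was left out (the medium-dose call was lost with no filter on low counts, 0.0634). At the high dose its 4 log2 fold changes over vehicle were between 0.04 and 0.08, and none passed.

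All 10 high-dose libraries exceeded all 10 low-dose libraries in HBEGF, which 3.05% of all tested genes also did. The mean was 9.36 ± 0.270 CPM at the high dose and 7.77 ± 0.547 CPM at the low dose (SD, n = 10 each), a log2 fold change of 0.28 ± 0.035 (SE, edgeR adjusted p 2.54e-07). HBEGF rose with Sagunja-tang by 0.34 (adjusted p 0.00855), Samul-tang by 0.34 (0.00427) and Sibjeondaebo-tang by 0.29 (7.65e-04), and with Palmul-tang the difference of 0.16 did not pass (0.0851). Sagunja-tang, with which TGFA showed no called difference, had 9.37 and 9.44 CPM of HBEGF at the high dose and 7.46 and 7.40 CPM at the low dose. That HBEGF call was lost when only those groups were fitted (edgeR adjusted p 0.57). With 2 libraries a group, the Sagunja-tang and Samul-tang calls of HBEGF were lost without some single libraries (adjusted p up to 0.098 and 0.0968).

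DUSP4 encodes a nuclear phosphatase of MAP kinases (chr8:29333064-29350668, minus strand), and of the phosphatases in the set it was the one that fell. In the high-dose libraries it had 31.1 and 31.5 CPM with Sagunja-tang, 28.5 and 28.4 CPM with Samul-tang, 30.1, 30.2 and 31.2 CPM with Palmul-tang, and 30.8, 30.5 and 30.9 CPM with Sibjeondaebo-tang. The vehicle libraries had 37.3, 34.8 and 34.1 CPM, so all 10 high-dose libraries lay below all of vehicle, as they did for 11.1% of all tested genes. DUSP4 fell against vehicle at the high dose by 0.18 on the log2 scale with Sagunja-tang (edgeR adjusted p 0.00356; 0.0571 without high-dose replicate 2), by 0.32 with Samul-tang (1.51e-05), by 0.21 with Palmul-tang (2.65e-04) and by 0.20 with Sibjeondaebo-tang (2.72e-04). The Sagunja-tang call was also lost when only the groups compared were fitted (edgeR adjusted p 0.122). At low and medium doses the 8 log2 fold changes of DUSP4 over vehicle were all negative, from -0.13 to -0.07, and none passed. Averaged over extracts it was -0.09 at the low dose and -0.09 at the medium dose, which passed (adjusted p 0.0356 and 0.0328) and were lost without 1 of several libraries, most of all without vehicle replicate 1 (0.306 and 0.291).

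High against low dose, DUSP4 averaged 30.3 ± 1.08 CPM at the high dose and 33.2 ± 1.21 CPM at the low dose (SD, n = 10 each), a log2 fold change of -0.14 ± 0.023 (SE, edgeR adjusted p 2.69e-05). It fell with Samul-tang (-0.20, adjusted p 0.0129) and Palmul-tang (-0.14, 0.0238). With Sagunja-tang and Sibjeondaebo-tang the values were -0.11 and -0.10 and did not pass. Both single-extract calls were lost when 1 of several libraries was left out, with adjusted p up to 0.265 for Samul-tang (without low-dose replicate 3) and 0.0897 for Palmul-tang (without high-dose replicate 1).

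DUSP5, an ERK-directed nuclear phosphatase, was the lowest of the set and the most variable. It had 3.87 to 4.70 CPM with a median of 4.24 CPM in high-dose libraries and 3.13 to 4.47 CPM with a median of 3.77 CPM in low-dose libraries, and these ranges overlapped. With Palmul-tang it had 4.55, 4.70 and 4.36 CPM at the high dose and 3.45, 3.76 and 3.78 CPM at the low dose, groups that did not overlap, as 16.8% of all tested genes also lay higher without overlap there, and DUSP5 rose by a log2 fold change of 0.31 ± 0.101 (SE, edgeR adjusted p 0.0388). That call was lost without any 1 of those 6 libraries (adjusted p 0.0664 to 0.165). Averaged over extracts the log2 fold change was 0.18 ± 0.057 (adjusted p 0.0122), and it did not pass without low-dose Sagunja-tang replicate 2 (0.0623) or low-dose Samul-tang replicate 3 (0.0536). DUSP6, the cytoplasmic ERK phosphatase that is a standard transcript readout of ERK, had no call in 24 comparisons. It had 55.9 to 63.2 CPM with a median of 58.6 CPM in high-dose libraries and 56.5, 57.5 and 63.4 CPM in vehicle libraries. The low-dose libraries had 57.2 to 63.5 CPM with a median of 61.5 CPM. High against low dose, its 4 log2 fold changes lay from -0.08 to -0.02. With the extracts averaged, its unadjusted edgeR p was below 0.05 and its adjusted p was 0.104. The 95% intervals of its 12 log2 fold changes over vehicle lay within -0.13 and 0.18.

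SPRY4, a Sprouty family inhibitor of receptor tyrosine kinase signalling (chr5:142310427-142326455, minus strand), had the most uniform difference from vehicle. Its extract libraries had 53.1 to 72.9 CPM with a median of 67.2 CPM, and its vehicle libraries had 83.2, 82.2 and 81.4 CPM. All 30 extract libraries lay below all 3 vehicle libraries, which was so for 4.68% of all tested genes, while 4.87% lay above in the same way. SPRY4 fell in 12 of 12 comparisons by 0.23 to 0.46 on the log2 scale (edgeR adjusted p 1.61e-06 to 0.00224). At the high dose, for example, it averaged 68.3 ± 0.632 CPM with Samul-tang (SD, n = 2) and 67.4 ± 1.98 CPM with Sibjeondaebo-tang (SD, n = 3), against 82.3 ± 0.882 CPM in vehicle (SD, n = 3). Of the 12 calls, 1 was lost in the alternatives, that of medium-dose Sagunja-tang without its replicate 2 (adjusted p 0.0763).

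No difference between doses was found for SPRY4. With the extracts averaged, the log2 fold change over vehicle was -0.28 at the low, -0.30 at the medium and -0.32 at the high dose, and high against low dose it was -0.03 ± 0.028 (SE, edgeR adjusted p 0.415). The mitochondrial share of counts, given above, also separated most extract libraries from vehicle, and its part in the SPRY4 difference was not tested. The high-dose Sagunja-tang pair stood apart, with 53.1 CPM in replicate 2 and 66.6 CPM in replicate 3. Without replicate 2 the high-dose difference from vehicle was -0.30 (adjusted p 0.000254), and without replicate 3 it was -0.63 (1.74e-09). Without replicate 3 SPRY4 also passed for high against low dose with Sagunja-tang (-0.30, adjusted p 0.000176) and with the extracts averaged (-0.08, 0.0021), so those comparisons rest on which library is kept. In bulk RNA, fewer transcripts per cell and fewer cells that express the gene cannot be told apart.

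ETV4 and ETV5 belong to the same group of ETS factors and moved differently. ETV4 (chr17:43527844-43579620, minus strand) had 104 to 114 CPM with a median of 112 CPM in the high-dose libraries and 99.6 to 106 CPM with a median of 101 CPM in the low-dose libraries, and 9 of 10 high-dose libraries lay above all low-dose ones. High against low dose its log2 fold change was 0.12 ± 0.020 with the extracts averaged (SE, edgeR adjusted p 2.18e-05). It was positive with every extract (0.09 to 0.15) and passed with Palmul-tang (0.15, adjusted p 0.00526). The vehicle libraries had 104, 107 and 115 CPM, a range that covered all 10 high-dose libraries. Below vehicle, ETV4 passed at the low dose of Sagunja-tang (-0.12, adjusted p 0.0424) and with the low dose averaged over extracts (-0.09, 0.0186), and both calls were lost without vehicle replicate 3 (0.235 and 0.293) and without some other single libraries.

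ETV5 (chr3:186046308-186110318, minus strand) lay above vehicle at all doses. Its extract libraries had 39.5 to 46.6 CPM with a median of 43.7 CPM and its vehicle libraries 40.8, 37.8 and 41.8 CPM, and 28 of 30 extract libraries were above all of vehicle. All 12 log2 fold changes over vehicle were positive (0.08 to 0.19), and ETV5 rose in 6: at the low dose with Sibjeondaebo-tang (0.14, edgeR adjusted p 0.0229), at the medium dose with Sagunja-tang, Palmul-tang and Sibjeondaebo-tang (0.14 to 0.16), and at the high dose with Sagunja-tang (0.19, 0.00233) and Sibjeondaebo-tang (0.18, 0.00145). The high-dose Sagunja-tang call was lost when only the groups compared were fitted (edgeR adjusted p 0.0985). High against low dose ETV5 was 0.03 ± 0.023 (edgeR adjusted p 0.29), so no difference with dose was found. The vehicle library at 37.8 CPM, replicate 2, bears on these calls: without it the 4 calls at low and medium doses were lost (adjusted p 0.0747 to 0.2), and the averaged differences at the low, medium and high dose missed the threshold (0.226, 0.109 and 0.0543).

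The extracts were compared with each other at the high dose in 4 pairs. Palmul-tang against Sagunja-tang and against Samul-tang also sets libraries of one kind of sample code against the other, and formula and code cannot be told apart there. In the fit reported, edgeR called TGFA alone of the 10 genes, and in 1 pair. TGFA was higher with Samul-tang (89.6 ± 2.29 CPM) than with Sagunja-tang (77.2 ± 1.19 CPM, SD, n = 2 each). The log2 fold change was 0.22 ± 0.042 (SE, edgeR adjusted p 0.00435). This was the single call among 10 genes in that pair, where 5.47% of all genes were called. At an unadjusted edgeR p below 0.05 there were 3 (TGFA, DUSP4 and SPRY4), and DESeq2 called 2. The call was lost without high-dose Sagunja-tang replicate 2 (0.132) or high-dose Samul-tang replicate 3 (0.0837), and when only those groups were fitted (0.663). For Palmul-tang against Sagunja-tang edgeR called 0 of the 10 genes, where 1.82% of all genes were called; at an unadjusted p below 0.05 there were 2 (TGFA and SPRY4), and DESeq2 called 1. For Palmul-tang against Samul-tang edgeR called 0 (0.138% of all genes), 3 had an unadjusted p below 0.05 (AREG, TGFA and DUSP4), and DESeq2 called 1. For Sibjeondaebo-tang against Palmul-tang edgeR called 0 (3.87% of all genes), 1 had an unadjusted p below 0.05 (TGFA), and DESeq2 called 1. TGFA thus had 88.4 ± 0.332 CPM with Sibjeondaebo-tang and 81.6 ± 3.12 CPM with Palmul-tang (SD, n = 3 each), a log2 fold change of 0.12 with a 95% interval of 0.05 to 0.19 and an adjusted p of 0.0547. HBEGF was called in none of the 4 pairs, with log2 fold changes from -0.03 to 0.04 between pairs and intervals within -0.19 and 0.18. The SPRY4 values of Palmul-tang against Sagunja-tang (0.21, adjusted p 0.0527) turn on the high-dose Sagunja-tang library described above.

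Without each library of high-dose Sagunja-tang, the other results on that group were as follows. DUSP4 against vehicle was -0.17 without replicate 2 (edgeR adjusted p 0.0571) and -0.19 without replicate 3 (0.0161), and ETV5 was 0.17 without replicate 2 (0.0462) and 0.22 without replicate 3 (0.00348). TGFA against vehicle was 0.03 without replicate 2 and -0.01 without replicate 3, and no other gene but SPRY4 passed against vehicle either way. High against low dose, HBEGF was 0.34 without replicate 2 (0.098) and 0.33 without replicate 3 (0.0157). ETV4, not called with both libraries, was 0.05 without replicate 2 (0.786) and passed at 0.18 without replicate 3 (0.00924). For Samul-tang against Sagunja-tang, TGFA was 0.19 without replicate 2 (0.132) and 0.23 without replicate 3 (0.00203), and SPRY4 was 0.03 without replicate 2 (0.953) and passed at 0.36 without replicate 3 (2.3e-05). For Palmul-tang against Sagunja-tang, SPRY4 was 0.05 without replicate 2 (0.906) and passed at 0.38 without replicate 3 (1.18e-05). With the extracts averaged, the 5 genes called for high against low dose and the 4 called at the high dose against vehicle passed whichever of the pair was left out.

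Other genes of the pathway were read from lists chosen by function, with 88 symbols in all. Their results are from the fit reported only, with both high-dose Sagunja-tang libraries, and how they depend on single libraries is not given. Among receptors and the machinery that releases ligands, with the extracts averaged at the high dose, 0 rose and 2 fell against vehicle of 8 tested, where 43.0% of all genes were called; at the same threshold 4 of the 10 ligand and output genes were called. EGF rose (0.42, edgeR adjusted p 0.0236), 1 of 3 other EGF family ligands tested. The 2 that fell were receptors: EGFR, at 170 ± 17.1 CPM with extracts (SD, n = 10) and 215 ± 11.7 CPM with vehicle (SD, n = 3), fell by 0.35 on the log2 scale (edgeR adjusted p 2.04e-05), and ERBB2 fell by 0.18 (1.43e-06). EGFR fell about as much at the low dose (-0.31, adjusted p 2.12e-04), where 31.9% of all genes were called, as they were at the medium dose (31.9%). With single extracts EGFR fell in 4 of 4 high-dose and 4 of 4 low-dose comparisons with vehicle, and it passed for high against low dose with none. Of RAS to ERK cascade genes 5 rose and 6 fell of 19, among them RPS6KA1, an ERK-activated kinase (0.20), and HRAS (0.45) higher, and the adaptor GAB1 (-0.39) and the RAS exchange factor SOS2 (-0.37) lower. Of other DUSP phosphatases 1 rose (DUSP2, 0.49) and 3 fell of 8 (DUSP16, -0.13; DUSP8, -0.21; DUSP3, -0.10). Of other feedback inhibitors 2 rose and 6 fell of 14, and the related SPRED1 (0.20) and SPRED2 (-0.28) went opposite ways. Of other ERK-dependent transcripts 4 rose and 7 fell of 28, with CXCL8 (0.45) and MCL1 (0.21) higher and MMP7 (-0.37) and JUNB (-0.27) lower. The medians of the lists were between -0.12 and -0.01, and that of all genes was -0.02.

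High against low dose, averaged over extracts, the gene of that background with the smallest p was ERRFI1, an inhibitor that binds the EGFR kinase domain. It had 92.5 ± 5.87 CPM at the high dose and 76.6 ± 2.62 CPM at the low dose (SD, n = 10 each), with no overlap (as for 3.05% of all genes), and rose by a log2 fold change of 0.27 ± 0.022 (SE, edgeR adjusted p 1.68e-10). SPRY1, a Sprouty like SPRY4, went the other way, with all high-dose libraries below all low-dose ones (as for 2.87% of all genes) and a log2 fold change of -0.27 (adjusted p 2.85e-08). In this comparison 38.5% of all genes were called, the share beside which each count of a list stands. Of the 14 other feedback inhibitors 2 rose and 3 fell. Of 28 other ERK-dependent transcripts 9 rose and 3 fell: FOSL1, an AP-1 subunit, rose by 0.44 (adjusted p 1.11e-07) and MYC by 0.22 (1.16e-07), whereas ETV1, the third member of the PEA3 group, fell by 0.32 (5.75e-07) and KLF6 by 0.12 (1.59e-05). FOSL1 and MYC were below vehicle at the low dose with 4 of 4 extracts (FOSL1 -0.62 to -0.45, MYC -0.33 to -0.22). At that dose HBEGF passed with the other extracts but not with Palmul-tang. Of 8 other DUSP genes 3 rose (DUSP14, 0.14; DUSP7, 0.16; DUSP2, 0.25) and 4 fell, among them DUSP16 (-0.13). Of 8 receptor and release genes 1 rose, ADAM17, the main sheddase of EGFR ligands (0.09), and 4 fell, among them ERBB2 (-0.14), RHBDF1 (-0.14) and ERBB3 (-0.06). Of 19 cascade genes 6 rose and 4 fell, with GRB2 (0.10) and HRAS (0.21) higher and SOS2 (-0.20) and GAB1 (-0.16) lower. Of the other EGF family ligands 3 were tested and 1 rose, EGF (0.32), at 1.92 ± 0.316 CPM at the high dose and 1.55 ± 0.249 CPM at the low dose. The filter on low counts removed the ligands EPGN, NRG1, NRG2 and NRG3 and the receptor ERBB4, each with a mean below 0.05 CPM. The medians of the lists lay between -0.11 and 0.05, against -0.01 over all genes tested.

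**Figure D4:**
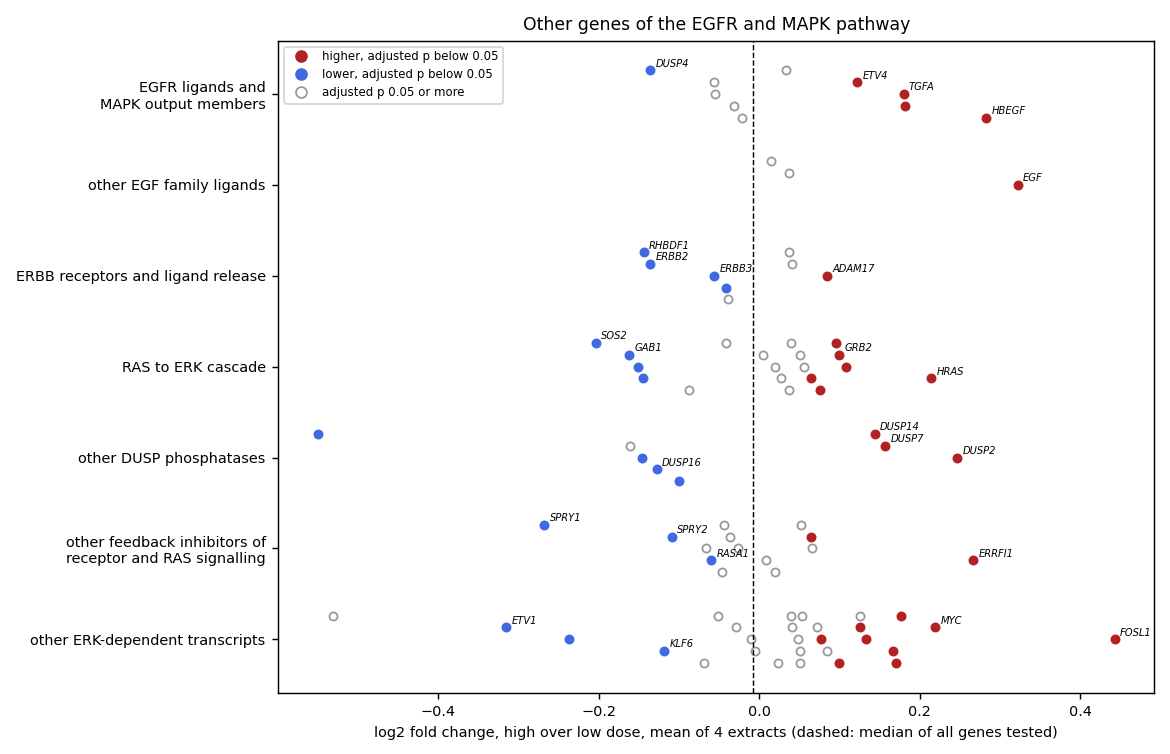
Log2 fold change of the high over the low dose, averaged over the 4 extracts (horizontal axis), for each tested gene of the ligand and output set and of 6 further lists (rows); red and blue points passed at an adjusted p below 0.05, and the dashed line is the median of all genes (-0.01). Every list but that of other EGF family ligands has called genes on both sides of the line, with FOSL1 (0.44), ERRFI1 (0.27) and HBEGF (0.28) to the right and ETV1 (-0.32) and SPRY1 (-0.27) to the left.

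Likeness of pattern was described by Pearson's r of mean log2 CPM over the 13 groups, which share a vehicle group and a normalization, among 10983 genes. Within the set, HBEGF was most like ETV4 (r = 0.84), TGFA was like ETV4 (0.77) and HBEGF (0.66) and opposite to DUSP4 (-0.83), and SPRY4 was opposite to ETV5 (-0.80). AREG and EREG had an r of 0.01 with each other. Outside the set, the genes most like TGFA were SLC2A1 (0.97), which encodes the glucose transporter GLUT1, ABCE1 (0.97) and LDHA (0.97), which encodes a lactate dehydrogenase subunit. Those most like HBEGF were TRIB2 (0.94), CAVIN1 (0.93) and MTRF1L (0.92). DUSP4 was most like AQP5, SCEL and GATA2 (0.97 each), and SPRY4 most like NOL4L (0.97), ZC3HAV1 and SH3D19 (0.96 each). Among the genes most like ETV4 were MGST1 (0.96) and MAK16 (0.95), and ETV5 was most like IER5 (0.95), RMI2 and SNRPD2 (0.93 each). For AREG (FBXO34, 0.87), EREG (TMEM237, 0.89), DUSP5 (ZNF668, 0.83) and DUSP6 (KLC4, 0.88) the likest gene was less close. No test was made, since the likest of many genes over 13 points is chosen for its r.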

How the data were processed

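RNA from HT29 cells was sequenced, per the labels' protocols, from stranded libraries as 100 bp pairs on an MGI instrument. The tools named in the submitters' processing notes are FastQC 0.11.9 for read quality, Trim Galore 0.6.5 for trimming, STAR 2.7.3a for alignment (build hg38) and RSEM 1.3.3 for quantification. The authors deposited RSEM expected counts per gene, and the annotation release is not given in the sources used here. RSEM divides reads that match several genes, so a value is an estimate. Of the values 9.45% were not whole, and they were rounded. Of 273 columns, the 33 whose names match the samples were used and 240 were not used.

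The 10 genes and the pathway lists were chosen with earlier results of these data known. Of 60675 genes, 57055 were found by identifier in GENCODE 29, which gave positions and exon lengths. In R 4.3.3 with edgeR 4.0.16, 17433 genes passed filterByExpr (minimum count 10). Libraries were scaled by TMM, and CPM use those scaled totals. One coefficient per group was fitted over all 33 libraries, which left 20 residual degrees of freedom; prior degrees of freedom were 7.01 and the common biological variation (BCV) was 0.0489. Quasi-likelihood F tests were adjusted by the Benjamini-Hochberg method over all genes, with a threshold of 0.05. The SE is the absolute log2 fold change divided by the square root of F, and 95% intervals use the t distribution with those degrees of freedom. There were 24 comparisons: 12 of an extract dose with vehicle, 4 of high with low dose, 4 between extracts at the high dose, and 4 with the extracts averaged at equal weight. In averaged comparisons the printed CPM means and SDs are over libraries. This gives 240 tests of the 10 genes, of which 60 passed.

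Depth was 28558886 to 49068064 counts a library, and every gene of the set had at least 115 counts. Genes named from the other lists are up to 4 each with the smallest p, and genes of like pattern are the 3 with the highest r among those with a mean log2 CPM of at least 2, of which 1 is not reported here. No 2 libraries of a group agreed within sampling noise. The fit was tested on simulated counts with known changes. Those counts held no offset by sample code and no deviations shared by replicate number, so that test cannot speak to either. Alternatives were RLE size factors, no filter on low counts, replicate number as a block, only the groups compared, DESeq2 1.42.0, and each library left out in turn.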

Additional observations from a re-analysis of the deposited data

Results flagged for a closer look

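The difference between extracts in TGFA was marked because 2 extracts at the same dose differed by a direct test: high-dose Samul-tang exceeded high-dose Sagunja-tang by a log2 fold change of 0.22 (edgeR adjusted p 0.00435), with 88.0 and 91.2 CPM in the Samul-tang libraries and 76.3 and 78.0 CPM in the Sagunja-tang libraries. That call was lost without high-dose Sagunja-tang replicate 2 (0.132) or high-dose Samul-tang replicate 3 (0.0837), and when only those groups were fitted (0.663). No group held the 4 libraries that a check for a single outlying library needs.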

How the results depend on the processing

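Of 60 calls of the 10 genes, 59 were kept with RLE size factors, 60 with the replicate block, 56 with DESeq2, 45 when only the groups compared were fitted, and 43 with no filter on low counts. Leaving out 1 library at a time ended 27 of the 60 at least once, and in no alternative did a called value change sign. Calls of SPRY4 were lost in 1 of these runs. Those of HBEGF, DUSP4, DUSP5, ETV4 and ETV5, and some of TGFA, were lost in several, of which only some are given above. With only the groups compared, HBEGF calls against vehicle were lost for low-dose Sagunja-tang (edgeR adjusted p 0.0529) and medium-dose Samul-tang (0.0793). Those of low-dose (0.0643) and medium-dose (0.116) Sibjeondaebo-tang were lost there too. The cause was not tested.

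The number of the 10 genes called moved by over 1.5 times as follows. With only the groups compared it was 1 for Sagunja-tang against vehicle at the low, medium and high dose (3, 2 and 3 in the fit reported), 1 for medium-dose Samul-tang and Palmul-tang (2 and 2), 1 for low-dose Sibjeondaebo-tang (3), 0 for Sagunja-tang high against low dose (1), and 0 for Samul-tang against Sagunja-tang (1). With no filter it was 1 for medium-dose Sagunja-tang, Samul-tang and Palmul-tang, 1 for low-dose Sagunja-tang and Sibjeondaebo-tang, 1 for Palmul-tang high against low dose (4), 2 for Samul-tang against Sagunja-tang, 1 for Palmul-tang against Sagunja-tang (0), and 3 and 2 for the averaged extracts at the low and medium dose (5 and 4). With DESeq2 it was 2 for low-dose Palmul-tang (1), 2 for Samul-tang against Sagunja-tang, and 1 each for Palmul-tang against Sagunja-tang, Palmul-tang against Samul-tang and Sibjeondaebo-tang against Palmul-tang (0 each). With RLE size factors it was 1 for Sibjeondaebo-tang against Palmul-tang.

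Without 1 library the counts ranged, in the order Sagunja-tang, Samul-tang, Palmul-tang, Sibjeondaebo-tang, from 1 to 3, 1 to 3, 1 to 2 and 1 to 4 at the low dose against vehicle, from 0 to 4, 1 to 3, 1 to 4 and 1 to 3 at the medium dose, from 2 to 3, 3 to 4, 2 to 3 and 4 to 4 at the high dose, and from 0 to 3, 1 to 2, 1 to 3 and 2 to 3 for high against low dose. Between extracts they ranged from 0 to 2 for Samul-tang against Sagunja-tang, 0 to 1 for Palmul-tang against Sagunja-tang, 0 to 0 for Palmul-tang against Samul-tang and 0 to 1 for Sibjeondaebo-tang against Palmul-tang. For the averaged extracts they ranged from 3 to 5, 2 to 5 and 3 to 4 against vehicle at the low, medium and high dose, and from 4 to 6 for high against low dose. Where only 1 library of a group remained, its variance was taken to equal that of other groups.

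The share of all genes called, used here as background, also moved. With only the groups compared, the genes called were 2182 for high-dose Sagunja-tang against vehicle (6388 in the fit reported), 1597 for medium-dose Sagunja-tang (2869), 1778 for medium-dose Palmul-tang (3481), 0 for Sagunja-tang high against low dose (1253), 2 for Samul-tang against Sagunja-tang (953) and 1 for Palmul-tang against Sagunja-tang (317). With no filter they were 1744 for Samul-tang against Sagunja-tang, 1388 for Palmul-tang against Sagunja-tang and 272 for Palmul-tang against Samul-tang (24), and DESeq2 gave 816 and 110 for these last pairs. Leaving out 1 library moved the count by over 1.5 times in 17 of 24 comparisons. The lowest counts were 2878 for high-dose Sagunja-tang (without replicate 2), 428 for medium-dose Sagunja-tang (without replicate 2), 644 for medium-dose Samul-tang (3512 in the fit reported; without replicate 2) and 775 for low-dose Samul-tang (3066; without replicate 2). For Sagunja-tang high against low dose the counts ran from 140 to 4223, for Samul-tang against Sagunja-tang from 64 to 4091 and for Palmul-tang against Sagunja-tang from 23 to 3670, the lowest without replicate 2 and the highest without replicate 3 of high-dose Sagunja-tang.

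The labels do not say that a replicate number marks a shared culture or batch, and not every pair of libraries with the same number deviated together, so the numbers were not treated as a pairing. Deviations from the group mean correlated with a median r of 0.06 (-0.33 to 0.55) between libraries of the same number and -0.03 between others, while for 26 of 33 libraries the closest library of another group had the same number, a hint from the data that some deviations are shared. The replicate block gave 2 calls for low-dose Palmul-tang (1), 2 for Samul-tang against Sagunja-tang (1), 1 for Palmul-tang against Sagunja-tang (0) and 1 for Sibjeondaebo-tang against Palmul-tang (0), gained 9 calls in all, and called 1474 genes for Samul-tang against Sagunja-tang. With 2 or 3 libraries a group, the intervals given for AREG, EREG and DUSP6 show which differences these data do not exclude for them.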
